A study of Mus musculus with 121 samples.

Results

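The genes described here are the neighbours of Gdnf on mouse chromosome 15. Gdnf spans bases 7810048 to 7837580 of that chromosome in the mm10 build. A gene was taken when its lowest annotated start lay at or below base 17810048, which is 10 Mb right of the start of Gdnf. It also had to reach at least 1 cpm, the count scaled to a common library total, in 3 or more of all libraries. To the left the window ended at base 0, so it is shorter on that side. Gdnf itself was left out. The rule took 50 of the 24412 genes in the table, 49 of them protein-coding and 1 a long non-coding RNA, BC037032. By start, 19 lie to the left of Gdnf and 31 to the right, from Selenop at base 3270767 to Cdh9 at base 16778101. The member detected in the fewest libraries was Adamts12, at 1 cpm or more in 22 libraries, and the genes of the window that came closest without entering were 4930556M19Rik and Mir1898, each with 2.

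The study asked what a rise of endogenous GDNF does in the mouse brain, using a conditional hypermorphic allele of Gdnf, cHyper, that Cre recombinase switches to its raised state in cells that already transcribe the gene. RNA was sequenced from the prefrontal cortex (PFC), the striatum (STR) and the substantia nigra (SN) of male mice carrying 0, 1 or 2 copies of the allele, called WT, HET and HOM. In the Nes-Cre model, every mouse, WT included, carried a Nestin-Cre transgene, active across the central nervous system from mid-gestation, and was 2 months old by its sample label, although the study's text gives a wider age for the STR and SN. In the AAV-Cre model, every mouse, WT included, had received an AAV5 vector coding for Cre in both striata at 3 to 5 months of age and was sampled at 5 to 7 months. The Nes-Cre libraries numbered 8 WT, 6 HET and 4 HOM in the PFC, and 6 WT, 7 HET and 6 HOM in each of the STR and SN, from 21 mice. The AAV-Cre libraries numbered 7 WT, 7 HET and 8 HOM in each of the PFC and SN, and 7 of each genotype in the STR, from 22 mice. WT mice were littermates on a mixed background of 129Ola, ICR and C57bl6. The allele had been made in G4 embryonic stem cells, a hybrid line of a 129 strain and C57BL/6. A HET or HOM mouse inherits the allele together with the stretch of chromosome around it, so in this design the allele and the sequence of that stretch cannot be told apart. The models also differ in age, in the route of Cre and in surgery at once, and these cannot be told apart either. In the AAV-Cre model the vector was placed in the STR only.

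Genes that lie next to each other on a chromosome are inherited together and can share regulatory sequence, yet most neighbours in mammalian genomes serve unrelated functions. The segment around Gdnf is of this mixed kind: it holds receptors for cytokines and hormones, the carrier of selenium in plasma, a glutamate transporter of astrocytes, a ribosomal protein, factors that process RNA, cadherins and genes of complement. GDNF, the ligand encoded by Gdnf, signals through the receptor tyrosine kinase RET and is made in the striatum mainly by interneurons.

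Library totals ran from 9869584 to 26750905 counts, with a median of 17885830. By group median the dissections matched their labels. The PFC markers summed to medians of 1668 to 1938 cpm in the PFC and to 118 cpm or less elsewhere. For the STR markers these were 3545 to 5562 cpm in the STR and 489 cpm or less elsewhere. For the SN markers they were 2513 to 3116 cpm in the SN and 33.3 cpm or less elsewhere. Single libraries held more markers of another region. The PFC markers reached 482 cpm in Nes-Cre STR HOM. The STR markers reached 827 cpm in AAV-Cre PFC HOM and 789 cpm in Nes-Cre SN HET, and the SN markers 51.4 cpm in AAV-Cre PFC HET. Some Nes-Cre libraries stood apart by how their counts moved with transcript length. This length slope, in log2 cpm per log2 bases of exon, was 0.0916 to 0.159 in 7 of the 19 Nes-Cre STR libraries, which were 1 WT, 3 HET and 3 HOM, and -0.133 to -0.0308 in the other 12. It was 0.0916 to 0.243 in 3 of the 19 Nes-Cre SN libraries, which were 2 HET and 1 HOM, and -0.134 to 0.0702 in the other 16. Every other library lay between -0.094 and 0.0732. In edgeR fits of a region alone, the counts of called neighbours in the STR and SN of Nes-Cre mice were 0 with and without these libraries. With all libraries in, other tests called some, as given below. Mouse M4575 is labelled WT in the PFC and HOM in the STR and SN, and each library kept its own label.

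In WT libraries, the 50 neighbours spanned a wide range of expression. Mean levels per kb of exon over the 41 WT libraries ran from 0.0651 cpm per kb for Adamts12, a secreted metalloprotease, to 202 cpm per kb for Selenop, which encodes the secreted carrier of selenium, with a median of 4.38. After Selenop came Rpl37, a protein of the large ribosomal subunit, at 183 ± 55.9 cpm per kb (SD), and Slc1a3, a glutamate transporter of astrocytes, at 155 ± 36.4. The order differed between regions: the SD of Selenop over the WT libraries was 114, and Selenop was the highest of these 3 in the SN of both models and the lowest of them in the PFC and STR. In all, 14 members lay above 10 cpm per kb and 9 lay below 1. The WT mean was highest in the SN for 28 members, in the STR for 13 and in the PFC for 9. Selenop was an SN gene in this sense, with 298 ± 27.1 cpm per kb in the AAV-Cre SN (SD, n = 7) against 146 ± 15 in the STR (n = 7) and 126 ± 10.6 in the PFC (n = 7). Rai14, which encodes an actin-binding protein, was a PFC gene, with 3.48 ± 0.394 cpm per kb in the Nes-Cre PFC (SD, n = 8), 1.24 ± 0.516 in the STR (n = 6) and 1.51 ± 0.672 in the SN (n = 6). The counts of Rpl37 and of Sub1, a coactivator of transcription, are uncertain, since near-identical pseudogene copies lie elsewhere in the genome. Among members, Oxct1, an enzyme of ketone body use, and BC037032 share 422 exon bases on opposite strands. Rai14 and Npr3 overlap genes below the detection limit by 89 and 366 exon bases. How the counting treated strand is not given in the sources used here, so reads of such pairs cannot be told apart.

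Gdnf itself was low outside the STR. In AAV-Cre STR, Gdnf lay between 5.45 and 7.45 cpm in WT (median 6.74), between 6.46 and 9.42 in HET (median 7.37) and between 7.71 and 9.98 in HOM (median 8.67). All 7 HOM libraries lay above every WT library. In Nes-Cre STR the medians were 5.98 cpm in WT, 5.67 in HET and 6.65 in HOM, with 2 of the 6 HOM libraries above the highest WT. Across the 3 regions, the slope of log2 expression per copy of cHyper was 0.20 in AAV-Cre mice (SE 0.059, adjusted p = 0.114 in limma voom with the mouse as block) and 0.12 in Nes-Cre mice (SE 0.0831, adjusted p = 0.522 in limma voom). Neither slope passed the threshold of an adjusted p under 0.1. That threshold is used for every call here, with Benjamini-Hochberg adjustment over all genes of the fit. By qPCR the study reported striatal Gdnf mRNA to rise with allele dose in Nes-Cre mice, and to be raised in HET and HOM of the AAV-Cre model. The recombined allele yields an mRNA with a short 3' untranslated region, while the counts cover 4867 annotated exon bases. The part of the replaced sequence in the Gdnf counts was not tested.

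In the PFC of Nes-Cre mice, a single neighbour passed the test. It was 2410089E03Rik, named Cplane1 in RefSeq, which encodes a protein needed for primary cilia and lies 0.359 Mb to the right of Gdnf (chr15:8169106-8271158). It was at 58.4 to 73.5 cpm in WT (median 62.9) and at 73.1 to 94 cpm in HET (median 83.2). The 4 HOM libraries had 76.6, 82.9, 87.2 and 90.4 cpm. Every HOM library and 5 of the 6 HET libraries lay above the highest WT library, which was that of M4575. 2410089E03Rik rose in HOM by a log2 fold change of 0.36 (SE 0.075, adjusted p = 0.0574 in edgeR), and its value in HET was 0.35 (SE 0.0662, adjusted p = 0.114 in edgeR). Leaving out the HOM library at 90.4 or that at 87.2 cpm ended the call in HOM, at adjusted p = 0.41 and 0.236 in edgeR, within a range of 0.00358 to 1 over 12 alternatives. Without M4575, whose PFC library was the highest WT, the log2 fold change in HOM was 0.39 with adjusted p = 0.0455 in edgeR.

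This was 1 of the 46 neighbours tested in HOM against WT in the Nes-Cre PFC, where 0.25% of all genes were called. The likelihood ratio test called 1 (2.15% of all genes) and DESeq2 called 2 (1.58%). In all, 5 of the 46 had an unadjusted p under 0.05 (10.9%, against 10.1% of all genes). The other 4 were Wdr70, a WD-repeat protein and the nearest neighbour to the right of Gdnf, at a log2 fold change of -0.38, Ttc33, a tetratricopeptide-repeat protein, at -0.23, Rxfp3, a receptor of relaxin family peptides, at 0.48, and Selenop at -0.19. Ttc33 had 31 to 38.9 cpm in the 4 HOM libraries and 38.5 to 46.1 cpm in WT (median 41.4), so that 3 of 4 HOM libraries lay below the lowest WT. In HET, edgeR called 0 of the 46 neighbours, as it called 0% of all genes, while the likelihood ratio test called 1 (2.88% of all genes) and DESeq2 called 1 (0.806%). At an unadjusted p under 0.05, 4 of the 46 passed (8.7%, against 9.72% of all genes). The markers of oligodendrocytes had lower medians in HET and HOM than in WT in this tissue, with overlapping groups. The 5 genes, led by Mbp and all detected in every library, summed to 3580 to 6016 cpm in WT (median 4496). Their sum was 3165 to 3700 cpm in HET (median 3667) and 2630 to 4366 cpm in HOM (median 3369). The 5 STR markers, led by Ppp1r1b and detected in every PFC library, were at 212 to 486 cpm in WT (median 297), at 132 to 222 in HET (median 172) and at 112 to 264 in HOM (median 202). The part of both lists in these values was not tested, and in bulk tissue fewer cells of a type and less RNA per cell cannot be told apart.

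In the STR of Nes-Cre mice edgeR called none of the neighbours, 0 of 49 in HET and 0 of 49 in HOM, with 0% of all genes called in HET and 0% in HOM. In HET, 14 of the 49 had an unadjusted p under 0.05, or 28.6%, against 17.3% of all genes. The likelihood ratio test called 9 (8.57% of all genes) and DESeq2 called 3 (3.69% of all genes). In HOM, 2 of the 49 had an unadjusted p under 0.05 (4.08%, against 4.62% of all genes), which were Ghr, the growth hormone receptor, and C7, a component of complement. There the likelihood ratio test called 1 (1.91% of all genes) and DESeq2 called 0 (0.0069%). The tissue markers of the STR had other medians in HET than in WT, with overlapping groups. The 5 STR markers, led by Ppp1r1b and detected in every library, summed to 4521 to 6259 cpm in WT (median 5562). Their sum was 2905 to 5502 cpm in HET (median 3545) and 3482 to 5808 cpm in HOM (median 4895). The 5 choroid plexus markers, led by Ttr in WT and HET, summed to lower medians in HET (89 cpm) and HOM (44.5 cpm) than in WT (107 cpm), but reached 18880 cpm in a single HET library, against at most 287 cpm in WT, where 1 of the 5 was at 0 in a library. Prlr, the prolactin receptor, which choroid plexus expresses, ran from 1.15 to 5.77 cpm in WT (median 2.97) and from 2.92 to 69.7 cpm in HET (median 12.8). Plcxd3 ran from 0.715 to 3.1 cpm in WT (median 1.57) and from 1.74 to 6.71 in HET (median 3.91). Cdh9, a cadherin, had a log2 fold change of -0.58 in HET, and Dab2, an endocytic adaptor, one of 0.78. The part of these markers in the values of HET was not tested.

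In the other Nes-Cre regions 2410089E03Rik was not called. In the STR it ran from 48.1 to 77.1 cpm in WT (median 62.5), from 63.5 to 117 cpm in HET (median 81.5) and from 53.9 to 99.7 cpm in HOM (median 78). In the SN it ran from 34.4 to 60.4 cpm in WT (median 48.7), from 53.5 to 105 cpm in HET (median 65) and from 46.7 to 107 cpm in HOM (median 54). The groups overlapped, although every HET library of both regions lay above the WT median. The log2 fold changes of HET were 0.42 in the STR (SE 0.15, adjusted p = 0.205 in edgeR) and 0.61 in the SN (SE 0.216, adjusted p = 0.518 in edgeR). This transcript has 10469 exon bases. The 7 STR libraries of high slope had 77.1 to 117 cpm and the other 12 had 48.1 to 88.6. In the SN the 3 libraries of high slope had 92.5 to 105 cpm and the other 16 had 34.4 to 107. With the length slope as a covariate the log2 fold change of HET was 0.24 in the STR and 0.31 in the SN. Without these libraries it was 0.31 in the STR (adjusted p = 0.26 in edgeR, within a range of 0.0134 to 0.26 over 9 alternatives) and 0.43 in the SN (adjusted p = 0.951 in edgeR, within a range of 0.00613 to 1 over 9 alternatives). Ttc33, with 1828 exon bases, had 40.9 to 46.3 cpm in the STR libraries of high slope and 45.4 to 65.2 in the rest, while 6030458C11Rik had 54.3 to 62.1 cpm in the former and 50.3 to 63 in the latter. The part of transcript length in these levels was not tested.

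**Figure D1:**
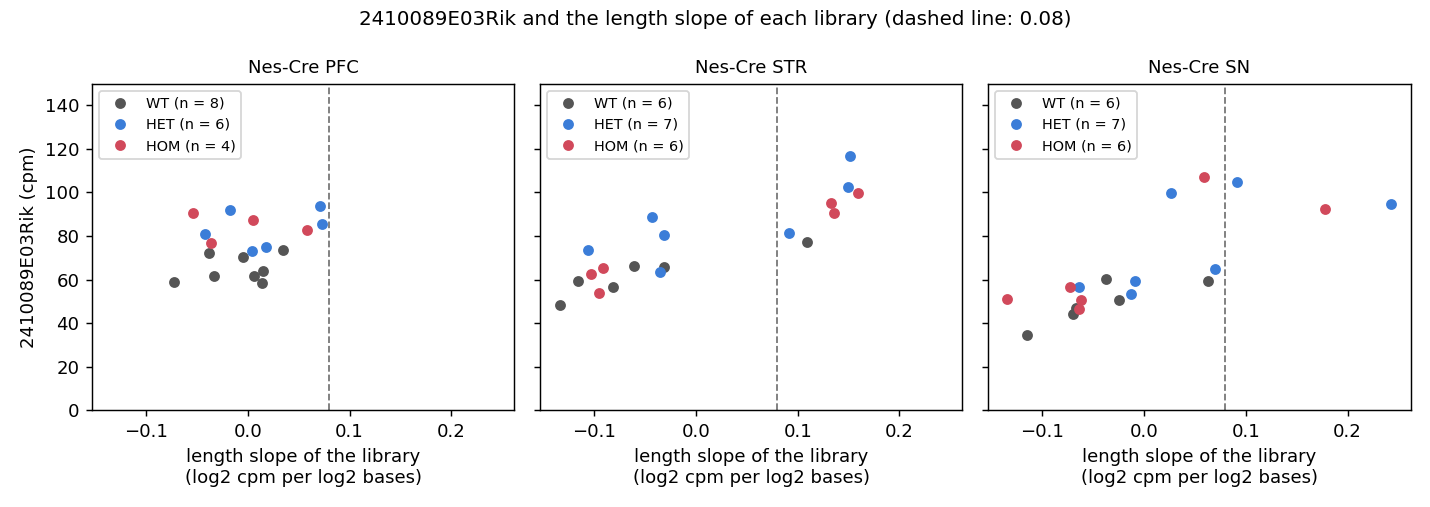
Level of 2410089E03Rik (cpm, vertical axis) against the length slope of each Nes-Cre library (log2 cpm per log2 bases, horizontal axis), by region and genotype, with each point a library. In the STR the 7 libraries right of the dashed line at 0.08 had 77.1 to 117 cpm, and in the PFC no library lay right of it.

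In the SN of Nes-Cre mice edgeR called 0 of 49 neighbours in HET and 0 of 49 in HOM, with 0% of all genes called in HET and 0% in HOM. At an unadjusted p under 0.05, 3 of the 49 passed in HET (6.12%, against 8.99% of all genes), namely 2410089E03Rik, Pdzd2 and Wdr70. In HOM 1 of the 49 did (2.04%, against 4.09% of all genes), which was BC037032. The likelihood ratio test called 2 in HET (2.23% of all genes) and 0 in HOM (0.8%), and DESeq2 called 0 in both (0.0336% and 0.00672%). Markers of fibroblasts and meninges, led by Igf2, summed to a median of 242 cpm in SN WT (146 to 1194), 398 in HET (211 to 959) and 548 in HOM (279 to 1073). The PFC markers summed to 12.5 cpm in WT (10.2 to 235), 41.2 in HET (18 to 137) and 118 in HOM (16.2 to 221), and the oligodendrocyte markers, led by Mbp, to 25886 cpm in WT (17200 to 30686), 21925 in HET (15597 to 24681) and 20094 in HOM (14999 to 23378). The groups overlapped in each, and the part of these lists was not tested.

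In the PFC of AAV-Cre mice, Rai14 was the neighbour that passed. It lies 2.76 Mb to the right of Gdnf (chr15:10568978-10714631). It was at 20.3 to 25 cpm in WT (median 22.3), at 16.9 to 22 cpm in HET (median 18.6) and at 12.2 to 18.2 cpm in HOM (median 16.1). All 8 HOM libraries lay below every WT library, as did 5 of the 7 HET libraries. The log2 fold change was -0.49 in HOM (SE 0.0797, adjusted p = 0.0313 in edgeR) and -0.25 in HET (SE 0.0817, adjusted p = 0.34 in edgeR). In HOM the adjusted p of edgeR ran from 3.92e-04 to 0.0976 over 6 alternatives, and DESeq2 gave none for it. In the STR Rai14 had medians of 6.23 cpm in WT, 7.68 in HET and 6.11 in HOM, and in the SN of 9.16, 9.55 and 8.44, with overlapping groups in both. The slope of Rai14 per copy was -0.25 in the PFC (SE 0.0648, adjusted p = 0.055 in limma voom, which passed), -0.10 in the STR (SE 0.092) and -0.08 in the SN (SE 0.0773), and the test of a difference between regions gave an adjusted p of 0.706 in limma voom. Its slope across regions in Nes-Cre mice was 0.03 (SE 0.0792), with PFC medians of 17.5, 16.5 and 19.2 cpm in WT, HET and HOM. The difference between the models was -0.19 per copy (SE 0.0919, adjusted p = 0.341 in limma voom).

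Rai14 was 1 of the 49 neighbours tested in HOM against WT in the AAV-Cre PFC, where 0.0137% of all genes were called. The likelihood ratio test called 6 (2.93% of all genes) and DESeq2 called 3 (1.26% of all genes). Of the 49, 17 had an unadjusted p under 0.05, or 34.7%, against 14.2% of all genes, 8 of them higher in HOM and 9 lower. The lower ones included Slc1a3 at a log2 fold change of -0.19, Fyb, an adaptor of immune cells, at -0.45, Dab2 at -0.29 and Selenop at -0.21. The higher ones included Rxfp3 at 0.76, Mtmr12, a myotubularin family protein, at 0.29, Cdh6, a cadherin, at 0.28 and 6030458C11Rik at 0.26. In HET edgeR called 0 of the 49 neighbours and 0% of all genes, the likelihood ratio test called 2 (1.7% of all genes) and DESeq2 called 0 (0.041%), and 11 of the 49 had an unadjusted p under 0.05 (22.4%, against 12.3% of all genes). Astrocyte markers, 5 of 5 detected in every library and led by Slc1a2, summed to medians of 4219 cpm in WT, 3695 in HET and 3643 in HOM in this tissue. Microglia markers, 5 of 5 detected in every library and led by Csf1r, summed to 316 cpm in WT, 266 in HET and 254 in HOM. Endothelial and mural markers, 5 of 5 detected in every library and led by Flt1, summed to 159 cpm in WT, 135 in HET and 134 in HOM. The 4 PFC markers, led by Slc17a7, went the other way, with 1668 cpm in WT, 1772 in HET and 1878 in HOM, and the groups overlapped in each list. The part of these lists in the lower or higher values of neighbours was not tested.

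In the STR, where the vector had been placed, edgeR called 0 of 49 neighbours in HET and 0 of 49 in HOM, with 0% of all genes called in HET and 0% in HOM. At an unadjusted p under 0.05, 0 of the 49 passed in HET (0%, against 1.71% of all genes) and 6 in HOM (12.2%, against 4.58% of all genes). These 6 were Sub1, 6030458C11Rik, Cdh6, Card6, Ghr and Fbxo4. The likelihood ratio test called 0 in HET (0.382% of all genes) and 2 in HOM (1.19%), and DESeq2 called 0 in HET (0%) and 1 in HOM (0.0341%). In the SN edgeR likewise called 0 of 49 in HET and 0 of 49 in HOM, with 0% of all genes called in HET and 0% in HOM. There 4 of the 49 had an unadjusted p under 0.05 in HET (8.16%, against 4.69% of all genes) and 13 in HOM (26.5%, against 7.49% of all genes). The likelihood ratio test called 2 in HET (2.19% of all genes) and 1 in HOM (1.47%), and DESeq2 called 0 in HET (0.00675%) and 1 in HOM (0.0675%). The lowest p of SN HOM belonged to Fbxo4, and that of SN HET to Prlr, which ran from 11.6 to 17.5 cpm in WT (median 13.8) and from 11.2 to 201 cpm in HET (median 12.9). Choroid plexus markers, led by Ttr, reached 21081 cpm in a single SN HET library, against at most 89.4 cpm in WT, with medians of 36 and 37.7 cpm. Fibroblast and meninges markers, led by Igf2, ran from 64.2 to 398 cpm in SN WT (median 153), from 82.6 to 823 in HET (median 308) and from 61.4 to 441 in HOM (median 228). The part of these lists was not tested.

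The 3 regions of a mouse were then fitted together, with a slope per copy of cHyper common to the regions. In AAV-Cre mice 5 of the 50 neighbours passed in limma voom (10%, against 0.855% of all genes), 3 upward and 2 downward. The unadjusted p was under 0.05 for 13 of the 50 (26%, against 9.24% of all genes), 8 upward and 5 downward. In Nes-Cre mice 0 of the 50 passed in limma voom, against 0.013% of all genes, with 10 at an unadjusted p under 0.05 (20%, against 10.8% of all genes), 2 upward and 8 downward. The fit of edgeR without the mouse as block called 0 of them as well, and the lowest adjusted p in limma voom was 0.406, for 2410089E03Rik at a slope of 0.17 (SE 0.0613).

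6030458C11Rik, which has no functional name, had the lowest p of the 50 in AAV-Cre mice. It lies 5 Mb to the right of Gdnf (chr15:12808177-12824657). In the PFC it was at 34.5 to 45.2 cpm in WT (median 43.1), at 43.2 to 48.6 in HET (median 45.5) and at 44 to 52.4 in HOM (median 47.2). In the STR it was at 41.6 to 50.3 cpm in WT (median 45.3), at 46 to 50.2 in HET (median 48.5) and at 48.1 to 61.7 in HOM (median 52.2). In the SN it was at 27.6 to 35.7 cpm in WT (median 31.6), at 29.7 to 35.7 in HET (median 33.7) and at 33.6 to 39 in HOM (median 34.9). Every HOM library of the 3 regions lay above the WT median of its region, with 5 of 8 in the PFC, 6 of 7 in the STR and 3 of 8 in the SN above the highest WT. Its slope was 0.11 per copy (SE 0.0167, adjusted p = 1.45e-04 in limma voom). By region the slope in limma voom was 0.13 in the PFC (SE 0.0264, adjusted p = 0.0139), 0.11 in the STR (SE 0.0254, adjusted p = 0.225) and 0.09 in the SN (SE 0.0265, adjusted p = 0.38), so that the PFC passed, and the test of a difference between regions gave an adjusted p of 0.9 in limma voom. Fits of edgeR to a region alone did not call it, with adjusted p from 0.164 in the PFC to 0.542 in the SN, within a range of 1.23e-05 to 0.542 over 9 alternatives.

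Sub1, which binds single-stranded DNA and acts as a coactivator of transcription, also rose with the copies. It lies 4.17 Mb to the right of Gdnf. In the STR it was at 175 to 211 cpm in WT (median 192), at 182 to 219 in HET (median 208) and at 196 to 246 in HOM (median 229), with 6 of 7 HOM libraries above the highest WT. In the PFC its medians were 166, 165 and 186 cpm in WT, HET and HOM, and in the SN it ran from 112 to 141 cpm in WT, from 112 to 140 in HET and from 119 to 160 in HOM, where the groups overlapped more. The slope of Sub1 was 0.10 per copy (SE 0.0202, adjusted p = 0.0047 in limma voom). Rxfp3 rose as well, with a slope of 0.28 (SE 0.0719, adjusted p = 0.0541 in limma voom), from low levels. In the PFC Rxfp3 was at 1.15 to 2.38 cpm in WT (median 1.7), at 1.73 to 2.94 in HET (median 2.35) and at 1.99 to 4.22 in HOM (median 2.78). All 8 HOM and all 7 HET libraries of the PFC lay above the WT median. In the STR the medians of Rxfp3 were 0.423, 0.789 and 1.15 cpm, and the WT group itself reached 2.22. In the SN they were 4.17, 4.29 and 4.98 cpm, with overlapping groups. The log2 fold change of Rxfp3 there was -0.008 in HET (SE 0.173) and 0.40 in HOM (SE 0.167).

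Fbxo4, a substrate-binding subunit of ubiquitin ligases, fell with the copies. It lies 3.85 Mb to the left of Gdnf (chr15:3963564-3979573). In the SN it was at 8.3 to 9.94 cpm in WT (median 9.16), at 7.6 to 9.13 in HET (median 7.72) and at 5.37 to 8.16 in HOM (median 7.43). All 8 HOM libraries of the SN lay below every WT library. In the PFC the ranges were 6.63 to 8.91 cpm in WT (median 7.64), 6.04 to 8 in HET (median 6.77) and 5.35 to 8.07 in HOM (median 6.12), with 7 of 8 HOM libraries below the lowest WT. In the STR the medians were 9.68, 9.15 and 8.74 cpm, and 3 of 7 HOM libraries lay below the lowest WT. The slope of Fbxo4 was -0.13 per copy (SE 0.0246, adjusted p = 0.00305 in limma voom). Selenop, at the left end of the segment, fell too, with a slope of -0.08 (SE 0.023, adjusted p = 0.0805 in limma voom). In the PFC Selenop was at 240 to 303 cpm in WT (median 288), at 220 to 293 in HET (median 254) and at 187 to 270 in HOM (median 242). Its medians were 342, 313 and 303 cpm in the STR and 683, 648 and 598 cpm in the SN, with overlapping groups. With the length slope of each library as a covariate, Selenop and Rxfp3 no longer passed, both at adjusted p = 0.104 in limma voom, and Adamts12 did. Their adjusted p ran from 0.0338 to 0.999 for Selenop and from 0.012 to 0.999 for Rxfp3 over 9 alternatives. Treating the libraries of a mouse as independent raised the count of 5 to 9, and the share of all genes to 1.77%.

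**Figure D2:**
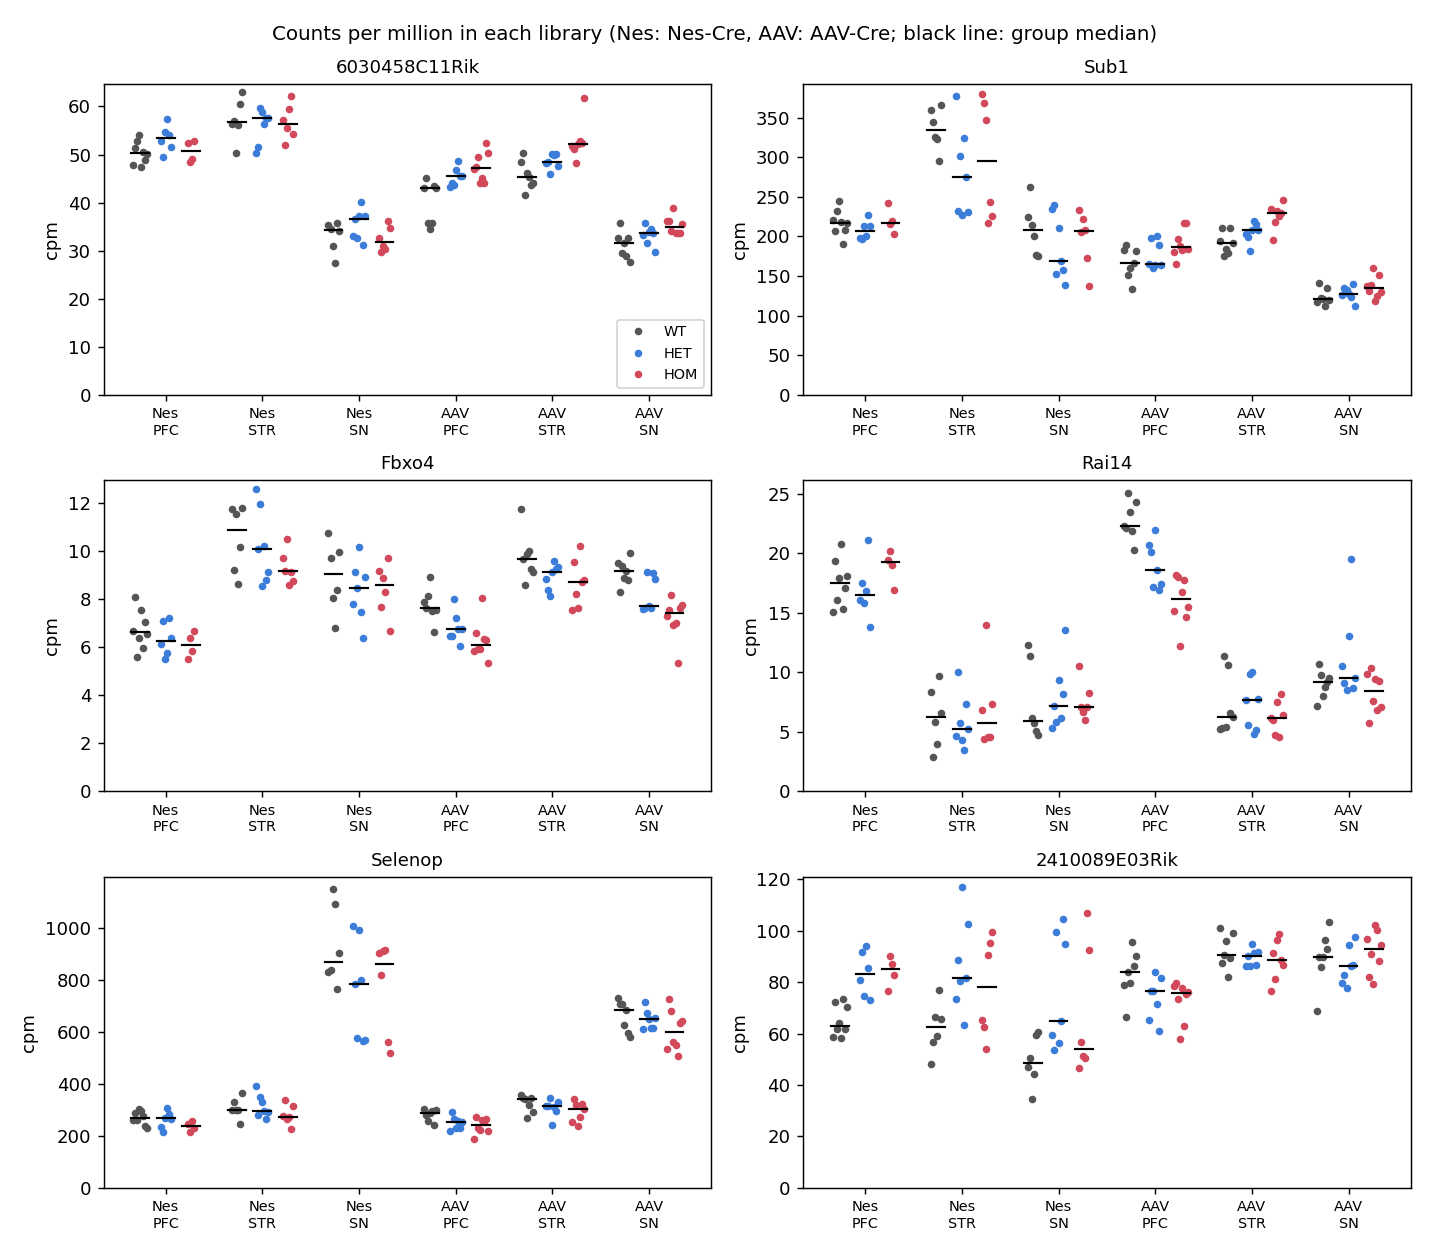
Level in cpm (vertical axis) of 6 neighbours of Gdnf in every library, by model, region and genotype, with each point a library and the black line the group median. In AAV-Cre mice the HOM libraries of 6030458C11Rik and Sub1 stand to the high side and those of Fbxo4, and of Rai14 in the PFC, to the low side of WT.

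None of the 5 genes whose slope passed in AAV-Cre mice passed for the slope in Nes-Cre mice in limma voom. There 6030458C11Rik had a slope of -0.01 per copy (SE 0.0228), with medians of 50.4, 53.4 and 50.8 cpm in the PFC, 56.7, 57.6 and 56.4 in the STR and 34.3, 36.7 and 31.8 in the SN, in the order WT, HET and HOM. The difference between the models was 0.12 per copy (SE 0.0277, adjusted p = 0.0233 in limma voom, and 0.00199 to 0.0269 over 4 alternatives). It was the only 1 of the 50 called for this difference (2%, against 0.351% of all genes), and 12 of the 50 had an unadjusted p under 0.05 (24%, against 13.8% of all genes). Sub1 came next, with a difference of 0.17 (SE 0.0475, adjusted p = 0.115 in limma voom), from a slope of -0.07 in Nes-Cre mice (SE 0.0444). 2410089E03Rik had a difference of -0.20 (SE 0.0624, adjusted p = 0.164 in limma voom), since its slope in AAV-Cre mice was -0.03 (SE 0.024). In the AAV-Cre PFC this gene was at 66.6 to 95.8 cpm in WT (median 83.9), at 60.9 to 84 in HET (median 76.4) and at 58.1 to 79.7 in HOM (median 75.8), the reverse order of the Nes-Cre PFC. Ttc33 had a log2 fold change of 0.14 in HOM of the AAV-Cre PFC (SE 0.071), with 7 of 8 HOM libraries above the WT median. Its values in HOM were 0.02 in the AAV-Cre STR (SE 0.0434) and -0.09 in the AAV-Cre SN (SE 0.0413). Leaving out M4575 gave 2 calls for the difference between models (0.657% of all genes), and treating libraries of a mouse as independent gave 6 (3.93% of all genes).

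Of these 5 genes, Fbxo4, Selenop and Rxfp3 had slopes of the same sign in both models. In Nes-Cre mice they were 0.11 for Rxfp3 (SE 0.114, adjusted p = 0.665 in limma voom), -0.08 for Fbxo4 (SE 0.0361, adjusted p = 0.435 in limma voom) and -0.11 for Selenop (SE 0.0458, adjusted p = 0.435 in limma voom). Rxfp3 in HET of the Nes-Cre STR had a log2 fold change of 1.46 (SE 0.592, adjusted p = 0.24 in edgeR, within a range of 0.00169 to 0.426 over 9 alternatives). Of these alternatives, 2 called it. For Fbxo4 the Nes-Cre STR medians were 10.9, 10.1 and 9.17 cpm in WT, HET and HOM, and all 6 HOM libraries lay below the WT median. The test of a difference between models gave adjusted p values of 0.72 for Fbxo4, 0.837 for Selenop and 0.552 for Rxfp3 in limma voom. Over all 50 neighbours the slopes of the models, which share no mice, had a Pearson r of 0.403 and a Spearman rho of 0.149 across genes. Genes are not independent replicates, and neighbours share their libraries. Both slopes were positive for 9 members and negative for 15, while 14 were positive in Nes-Cre and negative in AAV-Cre mice and 12 the other way. The median slope of the 50 was -0.01 in Nes-Cre mice and -0.02 in AAV-Cre mice, near 0 like that of all genes.

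**Figure D3:**
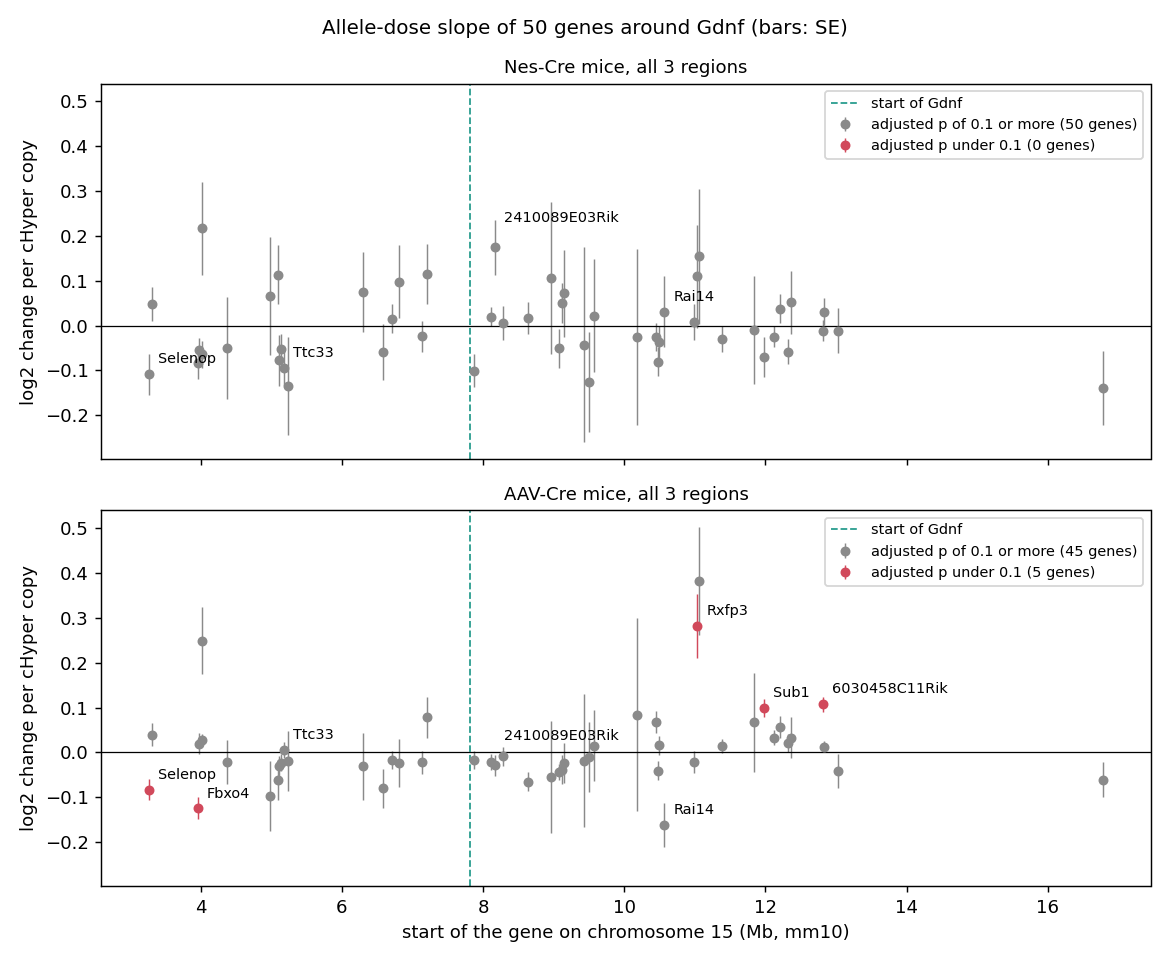
Slope of log2 expression per cHyper copy (vertical axis, bars are SE) for the 50 neighbours against their start on chromosome 15 (Mb, horizontal axis), with Nes-Cre mice above and AAV-Cre mice below. The 5 genes called in AAV-Cre mice lie on both sides of Gdnf, Selenop and Fbxo4 on the left and Rxfp3, Sub1 and 6030458C11Rik on the right.

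None of the neighbours was called for a difference between regions. In Nes-Cre mice limma voom called 0 of the 50 and 0% of all genes, also without the mouse as block, and 1 of the 50, C7, had an unadjusted p under 0.05 (2%, against 2.69% of all genes). In AAV-Cre mice limma voom called 0 of the 50, against 0.013% of all genes, also without the block, and 7 of the 50 had an unadjusted p under 0.05 (14%, against 10.4% of all genes). The lowest was Cdh6, with a slope of 0.14 in the PFC (SE 0.0509) and of -0.18 in the STR (SE 0.053), at an adjusted p of 0.136 in limma voom. With the length slope as a covariate Cdh6 was called, as were 0.24% of all genes. In the AAV-Cre STR Cdh6 was at 21.3 to 28.8 cpm in WT (median 24.3), at 19.3 to 26.1 in HET (median 23.1) and at 15.1 to 22.2 in HOM (median 19.2). In the PFC the medians were 24.3, 31.4 and 31.4 cpm. The groups overlapped in both regions.

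HET was also set against the midpoint of WT and HOM. In Nes-Cre mice limma voom called 0 of the 50 for a departure, against 0.0649% of all genes, and 1 without the mouse as block (1.09% of all genes), with 4 of the 50 at an unadjusted p under 0.05 (8%, against 9.62% of all genes), all upward. The lowest p of these 4 belonged to 2410089E03Rik, whose HET lay 0.29 above the midpoint on the log2 scale (SE 0.0985, adjusted p = 0.367 in limma voom). In AAV-Cre mice limma voom called 0 of the 50, against 0.013% of all genes, also without the block, with 2 of the 50 at an unadjusted p under 0.05 (4%, against 3.81% of all genes). 6030458C11Rik and Fbxo4 lay 0.02 (SE 0.0297) and -0.01 (SE 0.0424) from the midpoint there.

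By role, 2 of the 5 genes called in AAV-Cre mice were on a list, while Selenop, Fbxo4 and 6030458C11Rik were on none. Of the 8 receptors for cytokines and hormones, which were Lifr, Osmr, Ghr, Prlr, Il7r, Ptger4, Npr3 and Rxfp3, 1 rose in AAV-Cre mice, Rxfp3, where 0.855% of all genes were called, and slopes ran from -0.02 to 0.28. Of the 11 genes of DNA, RNA and chromatin, among them Nipbl, which loads cohesin, Drosha, which cuts primary microRNA transcripts, and Nup155, a nuclear pore protein, 1 rose, Sub1, against the same 0.855%. Lifr, the receptor of leukaemia inhibitory factor and a close neighbour to the left of Gdnf, had slopes of -0.02 in both models, with SE 0.0338 in Nes-Cre and 0.0257 in AAV-Cre mice. Nup155, close on the right, had slopes of 0.02 (SE 0.0218) and -0.02 (SE 0.0185). For the slope common to the regions, limma voom called none of the 3 signalling members, of the 4 members of metabolism and transport, of the 10 of adhesion, cytoskeleton and trafficking, or of the 1 complement gene, C7, in either model, while the slopes of Mtmr12, a signalling member, and of Rai14, an adhesion member, passed in the AAV-Cre PFC (adjusted p = 0.0204 and 0.055 in limma voom). At an unadjusted p under 0.05, AAV-Cre mice had 1, 3, 2 and 0 of these, against 9.24% of all genes, and Nes-Cre mice 0, 1, 1 and 0, against 10.8% of all genes. Among them Slc1a3 had a slope of -0.07 in AAV-Cre mice (SE 0.0215, adjusted p = 0.195 in limma voom) and of 0.02 in Nes-Cre mice (SE 0.0362). In the AAV-Cre PFC Slc1a3 was at 787 to 1046 cpm in WT (median 902), at 647 to 892 in HET (median 778) and at 673 to 932 in HOM (median 784).

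Distance from Gdnf did not order the calls evenly. The members more than 5 Mb away, Drosha, Cdh6 and Cdh9, all lie to the right of Gdnf. In AAV-Cre mice the slopes passed for 0 of 18 members within 2 Mb of Gdnf, for 5 of 29 between 2 and 5 Mb (17.2%) and for 0 of 3 between 5 and 10 Mb. Beyond the segment they passed for 0 of 14 genes between 10 and 20 Mb, for 10 of 540 on the rest of chromosome 15 (1.85%) and for 117 of 14837 on other chromosomes (0.789%). At an unadjusted p under 0.05 the shares were 11.1% within 2 Mb, 37.9% between 2 and 5 Mb, 0% between 5 and 10 Mb, 14.3% between 10 and 20 Mb, 11.7% on the rest of chromosome 15 and 9.09% on other chromosomes. In HOM against WT in the AAV-Cre PFC, 5 of the 14 genes between 10 and 20 Mb, outside the segment, had an unadjusted p under 0.05, or 35.7%, near the 34.7% of the neighbours themselves. In the AAV-Cre SN it was 0 of 14 (0%, against 26.5% of the neighbours), and in the STR 2 of 13 (15.4%, against 12.2%). Over whole chromosomes the largest shares of called genes were 2.73% on chromosome 17 and 2.48% on chromosome 15. Wdr70 and Egflam, a protein of the extracellular matrix, are among the nearest neighbours of Gdnf and were not called, with AAV-Cre slopes of -0.02 (SE 0.0205) and 0.08 (SE 0.0462). Wdr70 had a slope of -0.10 in Nes-Cre mice (SE 0.0365, adjusted p = 0.418 in limma voom), with PFC ranges of 11.4 to 15 cpm in WT (median 11.9), 10.2 to 11.6 in HET (median 11.2) and 8.58 to 12.1 in HOM (median 9.24).

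The member with the lowest p stands back to back with another. 6030458C11Rik on the minus strand and Drosha on the plus strand start 158 bases apart, so that their promoter windows, from RefSeq for the build GRCm38.p6, share 257 bases. The windows are shown because the gene on the minus strand was called and its partner was not: the slope of Drosha was 0.01 per copy in AAV-Cre mice (SE 0.0119, adjusted p = 0.805 in limma voom) and 0.03 in Nes-Cre mice (SE 0.0302, adjusted p = 0.647 in limma voom). RefSeq held such a window for 45 of the 50 members. The window of 6030458C11Rik is chr15:12824608-12824907 and that of Drosha is chr15:12824565-12824864, each read from 5′ to 3′ on its own strand, with the shared bases in capitals.
6030458C11Rik: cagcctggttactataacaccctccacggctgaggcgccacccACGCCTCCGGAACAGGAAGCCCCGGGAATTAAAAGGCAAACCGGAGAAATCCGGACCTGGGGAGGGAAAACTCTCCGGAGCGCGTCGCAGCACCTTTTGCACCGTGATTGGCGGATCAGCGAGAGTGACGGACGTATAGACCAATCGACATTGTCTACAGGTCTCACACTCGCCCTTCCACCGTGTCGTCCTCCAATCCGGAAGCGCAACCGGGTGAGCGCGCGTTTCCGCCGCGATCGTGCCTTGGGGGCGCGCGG
Drosha: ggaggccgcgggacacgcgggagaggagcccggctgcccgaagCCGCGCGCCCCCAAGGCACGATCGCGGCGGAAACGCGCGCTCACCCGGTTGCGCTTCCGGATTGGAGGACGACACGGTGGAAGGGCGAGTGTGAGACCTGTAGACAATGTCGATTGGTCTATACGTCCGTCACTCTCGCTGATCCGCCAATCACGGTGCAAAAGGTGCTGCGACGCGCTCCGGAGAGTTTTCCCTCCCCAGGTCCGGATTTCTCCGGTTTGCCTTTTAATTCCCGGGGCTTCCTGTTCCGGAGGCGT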

How the data were processed

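The values were raw counts per gene as deposited by the authors, with the exon length in bases and the positions that the counting program had written beside them, and 0 further columns of values were left unused. According to the submitters' processing notes, reads were made with bcl2fastq 2.20.0.422, aligned to mm10 with STAR 2.5.2b and counted with featureCounts 1.5.1. Of the 24412 genes, 6 had no symbol. Levels in cpm were counts scaled to the library total, without TMM factors. TMM scaling was used within the edgeR and limma voom fits. Levels were divided by exon length only where genes are compared with each other.

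Genotypes were compared by edgeR quasi-likelihood F tests in 6 fits, one per model and region, on genes that reached 1 cpm in 3 or more libraries of the fit. Slopes per copy of the allele, differences between regions and models, and departures from the midpoint came from limma voom with the mouse as block. Every test was two-sided. Adjustment was by Benjamini-Hochberg over the whole of a fit, with a threshold of 0.1. In edgeR the SE was taken as the log2 fold change divided by the root of its F value. The block correlation was 0.241 in Nes-Cre, 0.122 in AAV-Cre mice and 0.201 in the fit of both. Residuals of libraries of the same mouse had a median r across genes of 0.258 in Nes-Cre and 0.239 in AAV-Cre mice, against -0.00924 and -0.0131 for different mice. No pair of libraries was identical.

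The neighbours, the role lists and the marker lists were chosen with earlier results of these data known. Tests, most alternatives and the rule for named genes were written down ahead of the fits, with those earlier results known. Genes are named when they are Gdnf, one of Rai14, Selenop, Ttc33 and 2410089E03Rik, a neighbour called in a comparison with WT or in a fit of the slope, one of the 3 with the highest level per kb in WT, one of the nearest pair on each side of Gdnf, or on a role list. Plcxd3, Card6 and BC037032 are not covered by it and were picked once their values had been seen. Alternatives were the likelihood ratio test, DESeq2, other size factors, no filter on low counts, fits of fewer or more groups, fits without the replicate block, limma-trend, a stricter threshold, windows of 5 Mb (47 neighbours) and 20 Mb (64), and leaving out M4575 or single libraries. The length slope as a covariate, and leaving out libraries above a slope of 0.08, were chosen after seeing the data. Scripts were tested on simulated data and ran in R 4.3.3 with edgeR 4.0.16, limma 3.58.1 and DESeq2 1.42.0, and in Python 3.11.15 with pandas 2.3.3 and matplotlib 3.10.9.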

Additional observations from a re-analysis of the deposited data

Results flagged for a closer look

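Single libraries lay far from the rest of their group in 11 of 180 groups of values, taken over Gdnf, 8 of its neighbours and the length slope, and chance alone gives such a library in about 1 in 20 groups. For Gdnf these were an AAV-Cre SN WT library at 1.07 cpm, with the next at 0.335, a Nes-Cre PFC HOM library at 0.626 cpm, with the next at 0.139, and a Nes-Cre SN HET library at 1.66 cpm, with the next at 0.667. For Rai14 they were an AAV-Cre SN HET library at 19.5 cpm, with the next at 13, and a Nes-Cre STR HOM library at 14 cpm, with the next at 7.34. For Ttc33 they were an AAV-Cre PFC WT library at 42.4 cpm, with the next at 35.8, and a Nes-Cre PFC HET library at 46.4 cpm, with the next at 38.7.

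Among the genes called in AAV-Cre mice, a STR HOM library had 61.7 cpm of 6030458C11Rik, with the next at 52.8. For Fbxo4 a PFC HOM library had 8.07 cpm, with the next at 6.6, and a SN HOM library was the lowest at 5.37 cpm, with the next at 6.94. A STR WT library had 2.22 cpm of Rxfp3, with the next at 0.821. A difference between the models was found for 6030458C11Rik, at 0.12 log2 per copy (adjusted p = 0.0233 in limma voom). The causes were not tested.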

How the results depend on the processing

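Over the alternatives, 142 counts of called neighbours were equal to the reported count or, where neither was 0, within a ratio of 1.5 of it, and 38 moved. Of the medians over the neighbours 77 moved by less than the SD between libraries and 1 by more, that of HOM in the Nes-Cre STR, from 0.06 to -0.0481 without the libraries of high length slope. Of the values of single genes 296 kept their sign and their side of the threshold, 29 came to pass it, 21 no longer passed and 0 changed sign. The cause was not tested for any of these.

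In the Nes-Cre PFC the HET count of 0 became 1 by the likelihood ratio test, by DESeq2, with only the 2 genotypes compared (0.273% of all genes) and without M4575 (0.634%), and 0 to 1 when single HOM libraries were left out. The HOM count of 1 became 2 by DESeq2 (1.58% of all genes), 0 with only the 2 genotypes, with all 3 regions in 1 fit and at an adjusted p under 0.05, and 0 to 1 when single libraries were left out. In the Nes-Cre STR the HET count of 0 became 9 by the likelihood ratio test, 3 by DESeq2 and 7 with all 3 regions in 1 fit (7.02% of all genes), and the HOM count became 1 by the likelihood ratio test. In the Nes-Cre SN the HET count became 2 by that test. In AAV-Cre mice the PFC HET count of 0 became 2 by that test and 2 with 3 regions in 1 fit (1.25% of all genes), and the PFC HOM count of 1 became 6 by that test, 3 by DESeq2 and 7 with 3 regions in 1 fit (2.98%). The STR HOM count of 0 became 2 by the likelihood ratio test and 1 by DESeq2, the SN HET count 2 by the likelihood ratio test, and the SN HOM count 1 by that test, by DESeq2 and with 3 regions in 1 fit (0.0842%).

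The Nes-Cre slope count of 0 became 1 in edgeR on the PFC alone (0.5% of all genes), while the PFC slope in limma voom gave 0. The AAV-Cre slope count of 5 became 1 in edgeR on the PFC alone (0.0137% of all genes), 0 on the STR alone and 0 on the SN alone, where the slopes per region in limma voom gave 4, 0 and 1 (1.71%, 0.0324% and 0.0907% of all genes; 6030458C11Rik, Mtmr12, Rai14 and Sub1 in the PFC and Fbxo4 in the SN), and 3 at an adjusted p under 0.05. Without the replicate block it was 9 in limma voom (1.77% of all genes) and 6 in edgeR (1.71%), the Nes-Cre midpoint count was 1 in place of 0 (1.09%) and the count for the difference between models 6 in place of 1 (3.93%). The replicate block changed no other count. The difference between models gave 2 without M4575 (0.657%), and the AAV-Cre difference between regions 1 with the length slope as a covariate (0.24%), an alternative chosen after seeing the data. Called in 6 of 9 alternatives were the slopes of 6030458C11Rik (adjusted p 1.23e-05 to 0.542), Fbxo4 (1.58e-04 to 0.999) and Sub1 (0.00105 to 0.609), and in 5 of 9 those of Rxfp3 and Selenop, in limma voom, limma-trend or edgeR. Depth limits Gdnf outside the STR, Adamts12 and Rxfp3 in the STR, where levels near 1 cpm rest on few counts.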
